A study of Mus musculus with 18 samples.

Results

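Sqstm1, Nfe2l2, Keap1, Hmox1, Nqo1, Gclc, Gclm, Txnrd1, Srxn1 and Slc7a11 are 10 genes of the KEAP1-NRF2 oxidative stress response, and they were followed in laser-captured areas of the mouse thyroid. The members were all probes whose gene name on the array was one of these symbols or an older alias, which gave 18 of 41174 gene probes. Of the 10 genes, 8 had a probe well above background in the tissue channel on at least 3 arrays and entered the fit of 14664 genes, through 12 kept probes. Sqstm1 was selected on its measured values: it had the smallest p of all 14664 genes when the peripheral area of dissected thyroids was set against that of normal thyroids. Its values in that comparison are therefore given as a description.

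All tissue came from thyroids of male C57BL/6 mice. The groups were the peripheral area after partial thyroidectomy (dissected peripheral, 5 arrays), the peripheral area without surgery (normal peripheral, 3 arrays), the central area after partial thyroidectomy (dissected central, 5 arrays) and the central area without surgery (normal central, 5 arrays). No other treatment, transgene or age was given for any group, and an area could come from the right or the left lobe. The time between surgery and collection is not given in the sources used here. On each of the 18 two-channel arrays, Cy5 carried amplified RNA of 1 captured area and Cy3 carried a common RNA mixed from other tissues of Swiss Webster mice, thyroid not among them. Dyes were not swapped, so a dye effect is shared by all groups. The labels do not tie areas to mice, so arrays may share a mouse. If arrays of the same group share a mouse, the p-values below may be too small. If arrays of different groups that are compared share a mouse, the p-values of that comparison may be too large. The labels do not tell these cases apart. In bulk tissue of this kind, fewer cells of a type and less RNA per cell cannot be told apart.

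NRF2, encoded by Nfe2l2, is a transcription factor that KEAP1 holds in the cytoplasm and delivers to a CUL3 ubiquitin ligase for degradation. Oxidants and electrophiles modify KEAP1, and NRF2 then enters the nucleus, pairs with a small MAF protein and binds antioxidant response elements near genes for glutathione synthesis, thioredoxin reduction and detoxification. Sqstm1 encodes p62, an autophagy receptor that can bind KEAP1 and so release NRF2, and Sqstm1 is itself an NRF2 target. The thyroid produces hydrogen peroxide at the apical membrane of its follicular cells, because thyroid peroxidase needs it to iodinate thyroglobulin.

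The sequences below are the 250 bases before the transcription start of Sqstm1, the gene that was chosen, of Nfe2l2, the factor itself, and of Txnrd1, the member with the next largest peripheral difference, at the second of its 3 listed starts. They come from RefSeq on GRCm38.p6 and lie at chr11:50210821-50211070 on the minus strand, chr2:75704664-75704913 on the minus strand and chr10:82858956-82859205 on the plus strand. Capitals mark the letters TGACNNNGC, a core form of the antioxidant response element, searched on both strands.
Sqstm1: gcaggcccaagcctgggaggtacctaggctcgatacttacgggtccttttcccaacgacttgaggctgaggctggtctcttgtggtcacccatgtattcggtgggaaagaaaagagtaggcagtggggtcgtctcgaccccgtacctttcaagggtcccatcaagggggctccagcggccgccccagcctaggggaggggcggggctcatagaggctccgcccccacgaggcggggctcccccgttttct
Nfe2l2: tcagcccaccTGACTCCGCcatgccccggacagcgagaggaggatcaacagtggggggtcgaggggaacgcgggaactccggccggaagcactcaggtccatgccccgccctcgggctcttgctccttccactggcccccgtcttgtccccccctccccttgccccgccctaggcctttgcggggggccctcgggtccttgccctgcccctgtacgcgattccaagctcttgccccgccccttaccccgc
Txnrd1: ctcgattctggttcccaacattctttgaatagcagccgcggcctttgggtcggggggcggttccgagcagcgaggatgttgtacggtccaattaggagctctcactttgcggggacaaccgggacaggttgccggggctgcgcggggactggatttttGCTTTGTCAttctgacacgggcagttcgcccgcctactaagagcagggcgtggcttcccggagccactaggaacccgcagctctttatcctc
The motif lay 240 bases before the Nfe2l2 start on the gene's own strand and 92 bases before this Txnrd1 start on the opposite strand. The Gclm window held it as well, 134 bases before the start on the opposite strand. The windows of Sqstm1, Keap1, Nqo1, Srxn1 and Slc7a11 and the other 2 Txnrd1 windows did not hold these letters. This says nothing of sites elsewhere, or of other forms of the element inside these windows, which were not searched. Hmox1 and Gclc had no window and are named only. In all, 3 of 10 windows of 8 members held the motif, Txnrd1 having 3 windows, against 10.2% of the 32851 windows of all genes. The match is a description of letters and not of binding.

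The arrays differed in quality. In Cy5, the share of gene probes that passed the scanner's background flag ran from 24.7% to 44.0%. Normal peripheral replicate 1 was the lowest of the 18 arrays, at 24.7%, while its Cy3 share was 40.7%. The next lowest were dissected central replicates 2 and 1, at 28.1% and 29.5%, and dissected peripheral replicate 1, at 28.7%. Thyroid identity was checked with 8 thyrocyte markers: 6 were measured, and Slc5a5 and Foxe1 were not well above background on any array. Of 8 C cell markers (calcitonin-producing cells), 7 were measured, and 6 passed the test as higher in the central than in the peripheral area of dissected thyroids, 4 in normal thyroids. No thyrocyte or C cell marker passed the test between dissected and normal tissue in either area.

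Sqstm1 had 1 probe, at chr11:50156925-50156984 on the minus strand of mm7, the build of the array files. It ends in the following 30 bases, shown because they hold the polyadenylation hexamer AATAAA, in capitals, which was found in 1 of the 18 member probes.
Sqstm1 probe end: tggtttgtaagtaacctgtAATAAAatgcc
The probe was among the brightest on every array, at or above the percentile 99.5 of mean intensity, and was never saturated. Values are log2 ratios of Cy5 over Cy3 after background correction and loess normalization. In the dissected peripheral area Sqstm1 had log2 ratios of 0.63, 0.73, 0.49, 0.60 and 0.67 in replicates 1 to 5, against -0.92, 0.11 and -0.13 in normal peripheral replicates 1 to 3. In the dissected central area the log2 ratios were 0.06, 0.49, 0.36, 0.33 and 0.33, against 0.13, 0.09, 0.31, 0.08 and 0.13 in the normal central area. The 5 dissected peripheral arrays lay together and above all 3 normal peripheral arrays, as held for 2.16% of all genes, and nothing is read from this because the comparison chose the gene. Normal peripheral replicate 1 stood far below the other two, and the 2 central groups overlapped.

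**Figure D1:**
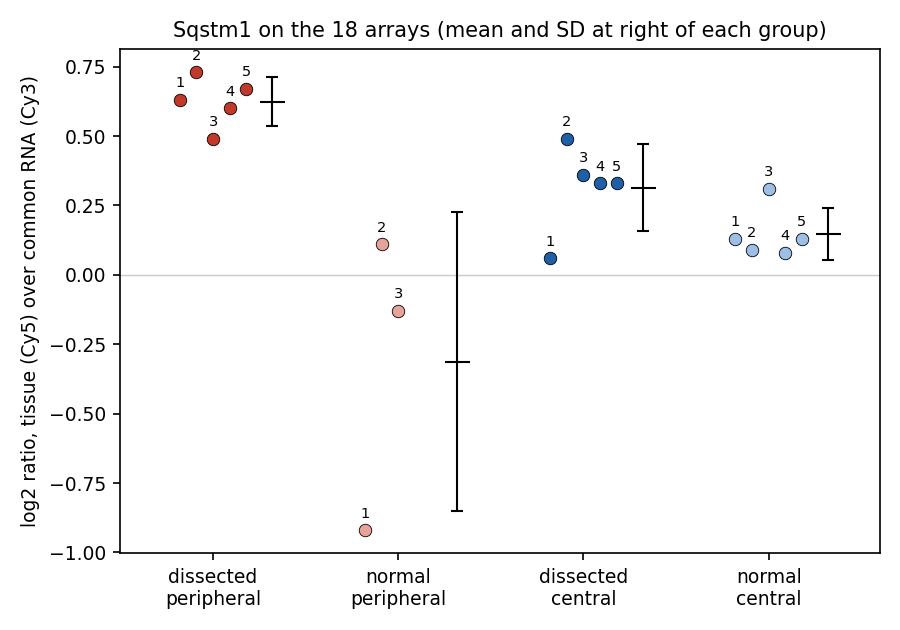
Sqstm1 log2 ratio (Cy5 over Cy3, vertical axis) on each of the 18 arrays in the 4 groups, with replicate numbers beside the points and the mean and SD to the right of each group. The dissected peripheral arrays lie between 0.49 and 0.73, and the normal peripheral arrays between -0.92 and 0.11.

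By group mean, Sqstm1 was highest in the dissected peripheral area at 0.62 ± 0.09, then the dissected central area at 0.31 ± 0.16, the normal central area at 0.15 ± 0.09 and the normal peripheral area at -0.32 ± 0.54 (log2 ratio, SD, n = 5, 5, 5 and 3). Only the step from the dissected peripheral to the dissected central mean exceeded the larger SD of its 2 groups. The wide SD of the normal peripheral area came from replicate 1, where the Cy5 intensity was 7060 and the Cy3 intensity 49696, against Cy5 of 53875 and 22033 in replicates 2 and 3.

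As a description of the values that chose it, Sqstm1 was 0.94 log2 units (SE 0.18) higher in dissected than in normal peripheral tissue, a 1.92-fold difference. Without normal peripheral replicate 1, the weakest array, the difference was 0.63 (SE 0.13). Within the 3 slides that carried both groups, the difference lay between 0.62 and 1.55. It could only be above 0 there, because the groups did not overlap. The brightest 1% of genes, 147 genes of like intensity, had a median difference of 0.02 in this comparison, and of -0.01 without that array. At unadjusted p under 0.05, 12.9% of them were higher and 9.52% lower, against 4.43% and 3.91% of all genes. Without that array the bright genes had 3.4% higher and 4.08% lower, against 2.28% and 2.67% of all genes. The comparison called 0 of 14664 genes at adjusted p under 0.05 by limma, 0% of genes, with 1224 genes at unadjusted p under 0.05. Sqstm1 itself had the smallest p and was not called.

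The central arrays entered the choice of Sqstm1 only through the spread that the fit shares over all 18 arrays: the peripheral SE was 0.18 in that fit and 0.22 with only the groups compared. Sqstm1 differed by 0.17 (SE 0.15, 95% interval -0.15 to 0.48) between dissected and normal central tissue (limma adjusted p = 0.998). Within slides, the dissected central array was higher on 4 of 5, with differences from -0.07 to 0.40. Under median centring in place of loess the central difference turned to -0.14, where the median of all genes moved to -0.15.

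The remaining comparisons of Sqstm1 share arrays with the one that chose it, so their values stand without a test. Between areas of dissected thyroids, Sqstm1 was 0.31 (SE 0.15) lower in the central than in the peripheral area. As these arrays did not overlap, it was lower on each of 5 slides, by a difference of -0.56 to -0.13. Between areas of normal thyroids it was 0.46 (SE 0.18) higher in the central area, and 0.16 higher without normal peripheral replicate 1. The difference after surgery was 0.77 (SE 0.23) smaller in the central than in the peripheral area, and 0.47 smaller without that array.

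**Figure D2:**
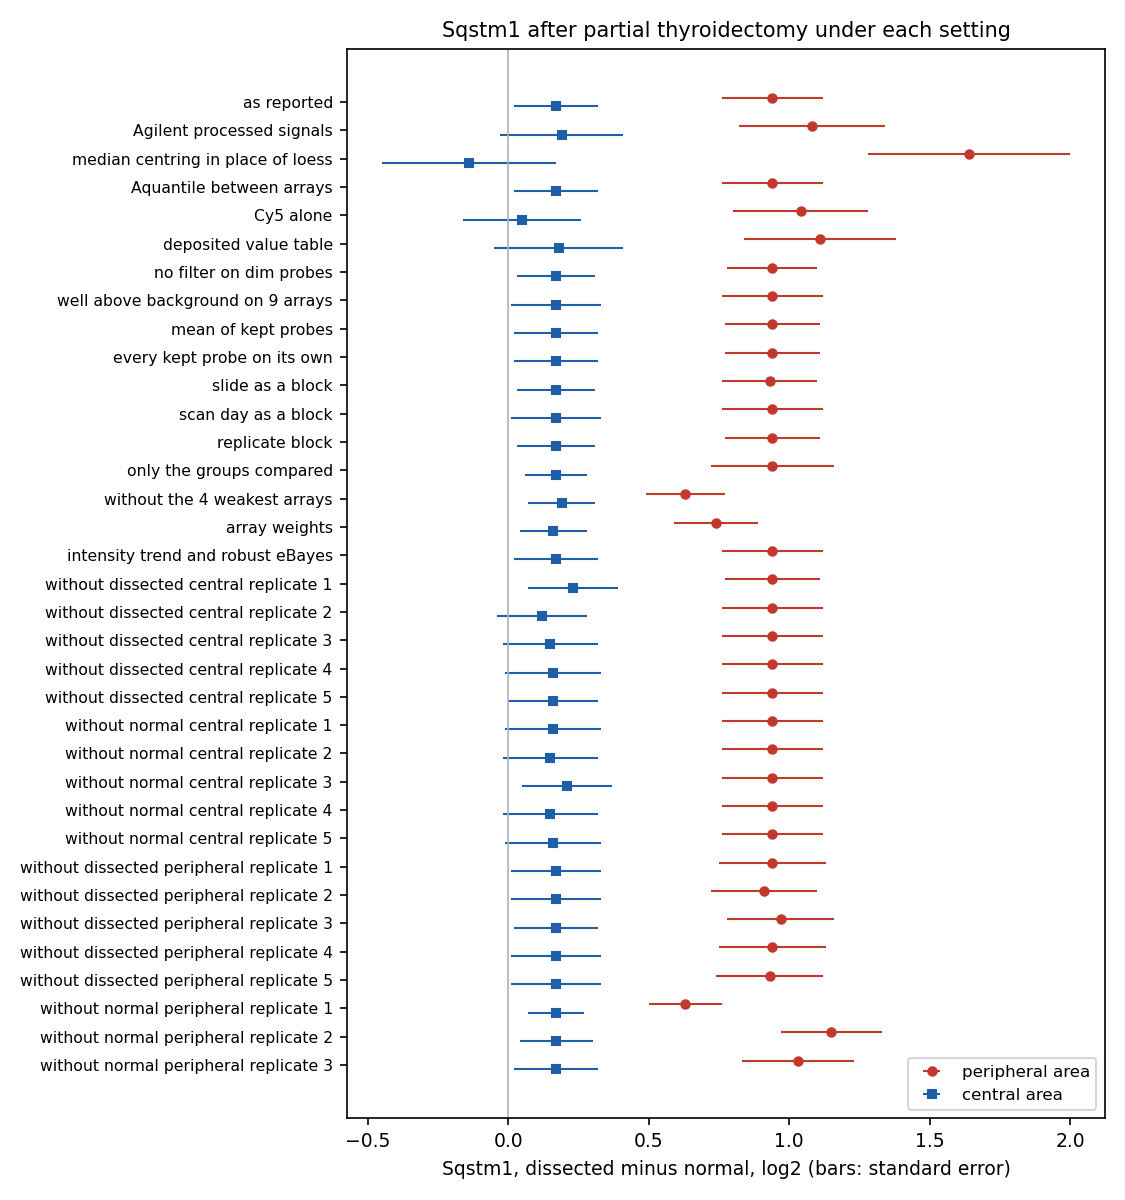
Dissected minus normal difference of Sqstm1 (horizontal axis, log2) in the peripheral area (circles) and the central area (squares), as reported and under each of the other settings listed at the left, with standard errors. The peripheral values run from 0.63 to 1.64, and the central values from -0.14 to 0.23.

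The plot of Sqstm1 over settings shows the peripheral value lowest where normal peripheral replicate 1 was left out, alone or with the other 3 weakest arrays, and highest under median centring. Leaving out any single array moved it within 0.63 to 1.15.

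The genes whose log2 ratio followed that of Sqstm1 most closely over the 18 arrays were Sod2 (mitochondrial superoxide dismutase, r = 0.89), Slc25a4 (a mitochondrial ADP/ATP carrier, r = 0.88), Zc3h7a (r = 0.88), Lamp1 (a lysosomal membrane protein, r = 0.87) and Hipk1 (a protein kinase, r = 0.87). These are correlations over arrays that share the common Cy3 RNA, the 4 groups and differing quality, and no test goes with them. Each of the 5 genes was low on normal peripheral replicate 1, from -0.76 for Lamp1 to -1.97 for Zc3h7a. Without that array the 5 correlations were 0.72, 0.70, 0.67, 0.73 and 0.63, and 0 of the 5 genes stayed among the 5 closest. Among the other members, r over 18 arrays ran from -0.54 for Hmox1 to 0.51 for Nfe2l2, and the Nfe2l2 value became -0.17 without that array.

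Nfe2l2 and Keap1, the factor and its inhibitor, gave no called difference in any comparison. Nfe2l2 had 4 probes, all on the minus strand of chromosome 2 in mm7, of which 3 were kept, and the brightest stood for the gene. Its log2 ratios ran from -0.55 to 0.25 in the dissected peripheral area, against -1.24, 0.12 and 0.27 in the normal peripheral area. In the central area they ran from -0.15 to 0.26 in dissected and from -0.44 to 0.21 in normal tissue. Only normal peripheral replicate 1 stood apart, and the groups overlapped. Nfe2l2 differed by 0.20 (SE 0.28, 95% interval -0.38 to 0.78) between dissected and normal peripheral tissue, limma adjusted p = 0.885, and by -0.27 without that array. The other 2 kept probes gave 0.59 and 0.36 in this comparison, neither called. The value of 0.59 rests on 2 normal peripheral arrays, replicate 1 at -1.35 and replicate 2 at 0.01, as replicate 3 had no value. The dissected peripheral mean of that probe was -0.08. The central difference of Nfe2l2 was 0.14 (SE 0.24).

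Keap1 had log2 ratios of -0.34 to 0.39 in the dissected peripheral area, against -0.49 to 0.00 in the normal peripheral area, and the groups overlapped. The difference was 0.30 (SE 0.19, 95% interval -0.10 to 0.70), limma adjusted p = 0.684. In the central area the ratios ran from -0.36 to 0.21 in dissected and from -0.46 to 0.21 in normal tissue, a difference of 0.04 (SE 0.16).

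Txnrd1 and Srxn1 serve the thioredoxin branch of the response. Txnrd1 encodes cytosolic thioredoxin reductase, and Srxn1 encodes sulfiredoxin, which repairs over-oxidized peroxiredoxins. Txnrd1 had log2 ratios of -0.15, 0.32, 0.79, 0.32 and 0.42 in dissected peripheral replicates 1 to 5, against 0.12, -0.08 and -0.46 in the normal peripheral area. All but replicate 1 of the dissected peripheral arrays lay above the normal peripheral ones. The difference was 0.48 (SE 0.22), a 1.39-fold value with unadjusted p = 0.0402 and limma adjusted p = 0.585. It was 0.61 without normal peripheral replicate 1 and 0.32 without normal peripheral replicate 3. Within slides, Txnrd1 was higher in dissected peripheral tissue on 2 of 3, with differences from -0.27 to 0.78. Its central difference was 0.08 (SE 0.19), with overlapping arrays. Txnrd1 was 0.40 (SE 0.19) lower in the central than in the peripheral area of dissected thyroids (limma adjusted p = 0.667).

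Srxn1 had 3 kept probes on the plus strand of chromosome 2, and the brightest stood for the gene. By that probe the log2 ratios were -0.05, -0.15, 0.50, 0.58 and 0.38 in the dissected central area, against 0.18, -0.19, -0.58, 0.04 and -0.32 in the dissected peripheral area. Dissected central replicates 3, 4 and 5 lay above every dissected peripheral array, and the other two fell within their range. Srxn1 was 0.43 (SE 0.18) higher in the central area of dissected thyroids (limma adjusted p = 0.587), and 0.54 (SE 0.20) higher in that of normal thyroids (limma adjusted p = 0.437). Its dimmer probes, well above background on 7 and 3 arrays, gave -0.24 and -0.22 in dissected thyroids, so the probes disagree in sign, and the mean of the 3 probes gave -0.01. Without the 4 weakest arrays the brightest probe gave 0.75, limma adjusted p = 0.0447. This was the only call of a member in a comparison of 2 groups under any setting run. The setting called 193 genes in all, against 86 as reported. It left out dissected central replicates 1 and 2, which fell within the peripheral range, and dissected peripheral replicate 1, the highest of its group. After surgery the Srxn1 difference was 0.20 (SE 0.20) in the peripheral and 0.09 (SE 0.18) in the central area.

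Gclc encodes the catalytic subunit of glutamate-cysteine ligase, the first step of glutathione synthesis. Its log2 ratios were 0.02, -0.18, -0.26, -0.58 and -0.67 in the dissected central area, against 0.16, 0.10, 0.66, 0.71 and 0.15 in the dissected peripheral area. Every dissected central array lay below every dissected peripheral array, as held, in this direction, for 0.464% of all genes. Sqstm1 did so too, but its dissected peripheral arrays are among the values that chose it. The Gclc difference was -0.69 (SE 0.19, 95% interval -1.09 to -0.29), with unadjusted p = 0.00213 and limma adjusted p = 0.158. Within the 5 slides it ran from -1.29 to -0.13, where the lack of overlap left only values below 0. In normal thyroids Gclc was 0.37 (SE 0.22) lower in the central area (limma adjusted p = 0.672), a difference that turned to 0.14 under median centring. After surgery Gclc differed by 0.11 (SE 0.22) in the peripheral and by -0.21 (SE 0.19) in the central area, neither called.

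Gclm, the modifier subunit of the same ligase, and Slc7a11, the cystine transporter that feeds it, were not well above background in either channel on any array. The Gclm probe read between 70.1 and 145 in Cy5, and the 4 Slc7a11 probes between 62.3 and 141, so no difference was computed for them.

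Nqo1 and Hmox1 encode a quinone reductase and heme oxygenase, and both probes were dim. Nqo1 had log2 ratios of 0.19, 0.03, -0.24, 0.32 and 0.07 in the dissected central area, against -0.19, -0.49, -0.19, -0.14 and -0.17 in the normal central area. All but replicate 3 of the dissected central arrays lay above every normal central array. The difference was 0.31 (SE 0.13), a 1.24-fold value with unadjusted p = 0.025 and limma adjusted p = 0.869. On the slides it was above 0 on 4 of 5. The probe was well above background on 13 of the 18 arrays, and at its intensities of 90.7 to 251 the signal was close to background. Over the 16 settings other than leaving out 1 array, the central difference ran from 0.27 to 0.80. It was highest with Agilent processed signals and was never called. The Nqo1 difference in the peripheral area was 0.13 (SE 0.15). Over the same settings it ran from 0.10 to 0.90, highest in the deposited value table, and was never called. Every normal central array lay below every normal peripheral array of Nqo1, as held for 1.28% of all genes, with a difference of -0.21 (SE 0.15, limma adjusted p = 0.716).

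Hmox1 had log2 ratios from -0.69 to -0.26 in the dissected peripheral area, where replicate 4 was dropped as a non-uniform spot, against -0.77 to 0.13 in the normal peripheral area. The difference was -0.19 (SE 0.19, limma adjusted p = 0.826), and it turned to 0.03 without normal peripheral replicate 1. In the central area Hmox1 averaged -0.39 ± 0.12 in dissected and -0.39 ± 0.22 in normal tissue (SD, n = 5 each).

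**Figure D3:**
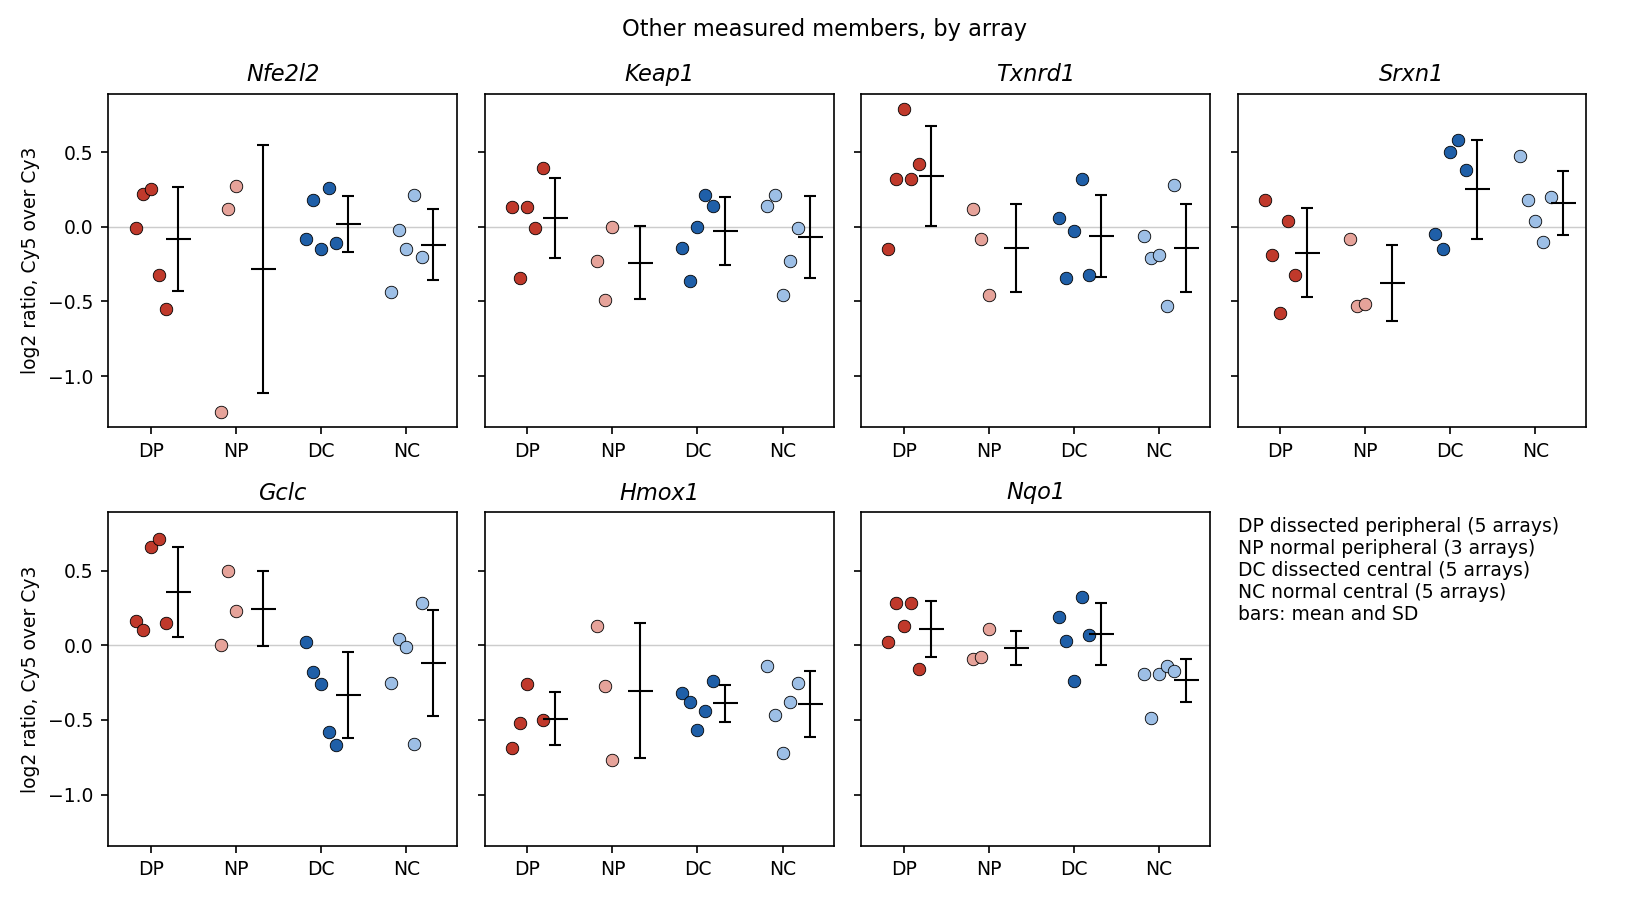
Log2 ratio (Cy5 over Cy3, vertical axis, same scale in each panel) of the other 7 measured members on each array, by group, with the mean and SD of each group. Hmox1 has 4 dissected peripheral arrays; Gclc shows dissected central arrays below all dissected peripheral arrays, and Nfe2l2 shows normal peripheral replicate 1 at -1.24.

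Over the 8 measured members, limma called 0 in any comparison of 2 groups at adjusted p under 0.05. The comparison of dissected with normal tissue called 0% of all genes in each area, so the members' count matches the background there. At unadjusted p under 0.05, Txnrd1 was higher in the dissected peripheral area besides Sqstm1, which was chosen for it, where 4.43% of all genes were higher. In dissected central tissue 1 member was higher, Nqo1, against 1.95% of all genes. Between areas of dissected thyroids 1 member was higher in the central area (Srxn1, against 4.5% of genes) and 2 were lower (Gclc and Txnrd1, against 2.93%), and in normal thyroids Srxn1 was higher (against 5.71%), with Sqstm1 left aside because its choice rests on the same normal peripheral arrays. The comparison of central with peripheral area called 0.586% of genes in dissected and 0.28% in normal thyroids, each time genes higher in the central area, and no member. Of the 8, 7 had differences above 0 in the peripheral and 7 in the central area, against 51% and 48.7% of all genes. Member medians were 0.20 and 0.09. The central count includes Keap1 at 0.036 (SE 0.16) and Hmox1 at 0.004 (SE 0.16). With 1 array left out, the Hmox1 value ran from -0.08 to 0.07. The peripheral count includes Sqstm1, and it was 6 of 8 without normal peripheral replicate 1. There Nfe2l2 turned to -0.27, Gclc to -0.01 and Hmox1 to 0.03. The count was 7 of 8 without dissected peripheral replicate 1 as well. The test across the 4 groups called Sqstm1 and 1.05% of all genes. It holds the comparison that chose Sqstm1, so nothing is read from that call, which 25 of 33 other settings lost. The median 95% interval over all genes reached 0.47 log2 units to either side in the peripheral and 0.41 in the central comparison of dissected with normal tissue.

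**Figure D4:**
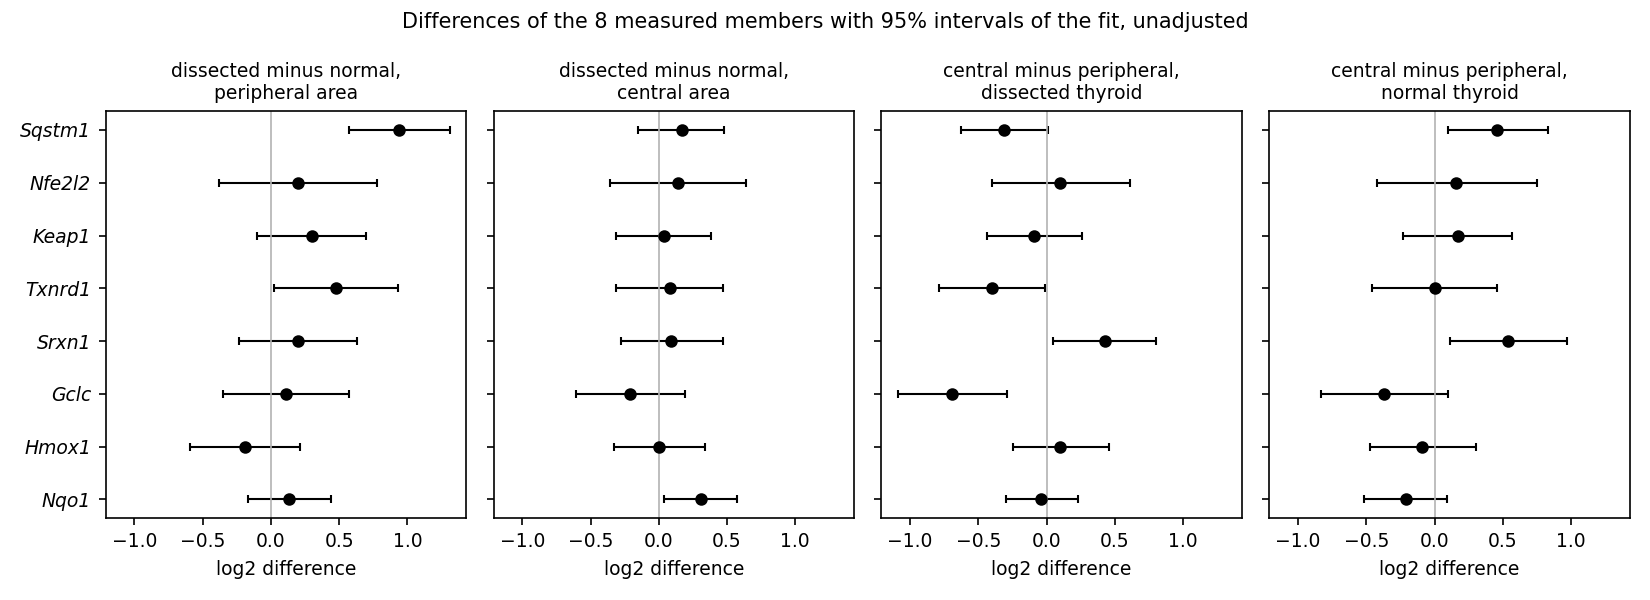
Log2 differences (horizontal axis) of the 8 measured members in the 4 comparisons of 2 groups, each with its 95% interval from limma, unadjusted. Intervals on one side of 0 include those of Gclc in dissected thyroids, -1.09 to -0.29, and of Nqo1 in the central area, 0.04 to 0.57.

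Other genes of the pathway were described with 5 lists. Of the 15 NRF2 partners and regulators, 13 were measured, and 0 were called in any comparison of 2 groups. Their median peripheral difference was 0.07 and their median central difference 0.04, with 9 and 7 genes above 0, against 51% and 48.7% of all genes. Maff, a small MAF partner, had 0.64 ± 0.49 in the dissected and -0.41 ± 0.47 in the normal peripheral area (log2 ratio, SD, n = 5 and 3), a difference of 1.05 (limma adjusted p = 0.533). Maff differed in the central area by 0.78 (limma adjusted p = 0.895). Bach2, a repressor of the response, differed by 0.81 between central and peripheral area of dissected thyroids (limma adjusted p = 0.593), and Nfe2l3, an NRF2 relative, by -0.69 in the peripheral area after surgery (limma adjusted p = 0.583).

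Of the 34 further NRF2 targets, 29 were measured, and 0 were called in any comparison of 2 groups or across the 4 groups. Their median difference after surgery was 0.01 in the peripheral area, with 15 of 29 above 0, against 51% of all genes. In the central area it was 0.04, with 18 of 29 above 0, against 48.7%. Without normal peripheral replicate 1 the peripheral median was 0.16, with 21 of 29 above 0, against 49.8% of all genes. At unadjusted p under 0.05, 2 of 29 were higher in the peripheral area, against 4.43% of all genes. That count was 3 without that array, against 2.28%, and 5 without dissected peripheral replicate 1 as well, against 2.13%. Both of these settings were chosen after seeing the data, so nothing is read from the rise. Under array weights, dissected peripheral replicate 1 had 1.71, the highest of the 18 arrays, and normal peripheral replicate 1 had 0.342, the lowest. Pir, which encodes the redox sensor pirin, differed by 0.63 in the peripheral area (limma adjusted p = 0.454) and by -0.19 in the central area. Gsta3, a glutathione S-transferase, differed by -0.17 in the peripheral and by 0.61 in the central area (limma adjusted p = 0.782 in the central area), and Ephx1, microsomal epoxide hydrolase, by 0.36 and 0.23, neither called.

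Of the 27 other antioxidant enzymes, 26 were measured, and 0 were called in a comparison of 2 groups. The test across the 4 groups called 1, Gpx3, which encodes a secreted glutathione peroxidase (limma adjusted p = 0.0485). Gpx3 averaged 0.36 ± 0.39 in the dissected central and -0.46 ± 0.44 in the dissected peripheral area, and 0.39 ± 0.21 in the normal central and -0.46 ± 0.17 in the normal peripheral area (log2 ratio, SD). Its difference between areas was 0.82 in dissected (limma adjusted p = 0.0924) and 0.85 in normal thyroids (limma adjusted p = 0.22), and after surgery it was -0.01 in the peripheral and -0.03 in the central area. Prdx4, a peroxiredoxin of the secretory pathway, was 0.79 higher in the central area of normal thyroids (limma adjusted p = 0.099) and 0.29 higher in that of dissected thyroids. Ggt1, a gamma-glutamyltransferase, differed by -0.44 and -0.37 between areas of dissected and normal thyroids, neither called. The list's median after surgery was 0.19 in the peripheral area, or 0.09 without normal peripheral replicate 1, and 0.04 in the central area.

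Of the 10 hydrogen peroxide producers, 8 were measured and 0 called. All 8 had peripheral differences above 0, with a median of 0.14, against 51% and a median of 0.01 over all genes. Without normal peripheral replicate 1, 7 were above 0, against 49.8% of all genes. In the central area 5 of 8 were above 0, against 48.7%, with a median of 0.05. At unadjusted p under 0.05, 0 of 8 were higher in the peripheral area, against 4.43% of all genes, and 1 in the central area, against 1.95%. Xdh, xanthine dehydrogenase, differed by 0.47 in the peripheral and 0.49 in the central area (limma adjusted p = 0.61 and 0.869). Duox1, a dual oxidase that supplies peroxide for hormone synthesis, differed by 0.19 and -0.03, and Duoxa2, a dual oxidase maturation factor, by 0.17 and 0.16.

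Of the 20 autophagy receptors and ATG8 proteins, 18 were measured and 0 called. Their median peripheral difference was 0.29, with 16 of 18 above 0, against a median of 0.01 and 51% above 0 over all genes. Without normal peripheral replicate 1 it was 0.22, with 14 of 18 above 0. At unadjusted p under 0.05, 5 of the 18 were higher, against 4.43% of all genes, and 2 without that array, against 2.28% of all genes. Without dissected peripheral replicate 1 as well, the median was 0.16, with 14 of 18 above 0. The central median was 0.04. Calcoco1, an autophagy receptor, differed by 0.58 in the peripheral and -0.33 in the central area, Tollip, an adaptor with a ubiquitin-binding domain, by 0.39 and 0.19, and Gabarapl2, an ATG8 protein, by 0.40 and -0.22, none of them called.

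**Figure D5:**
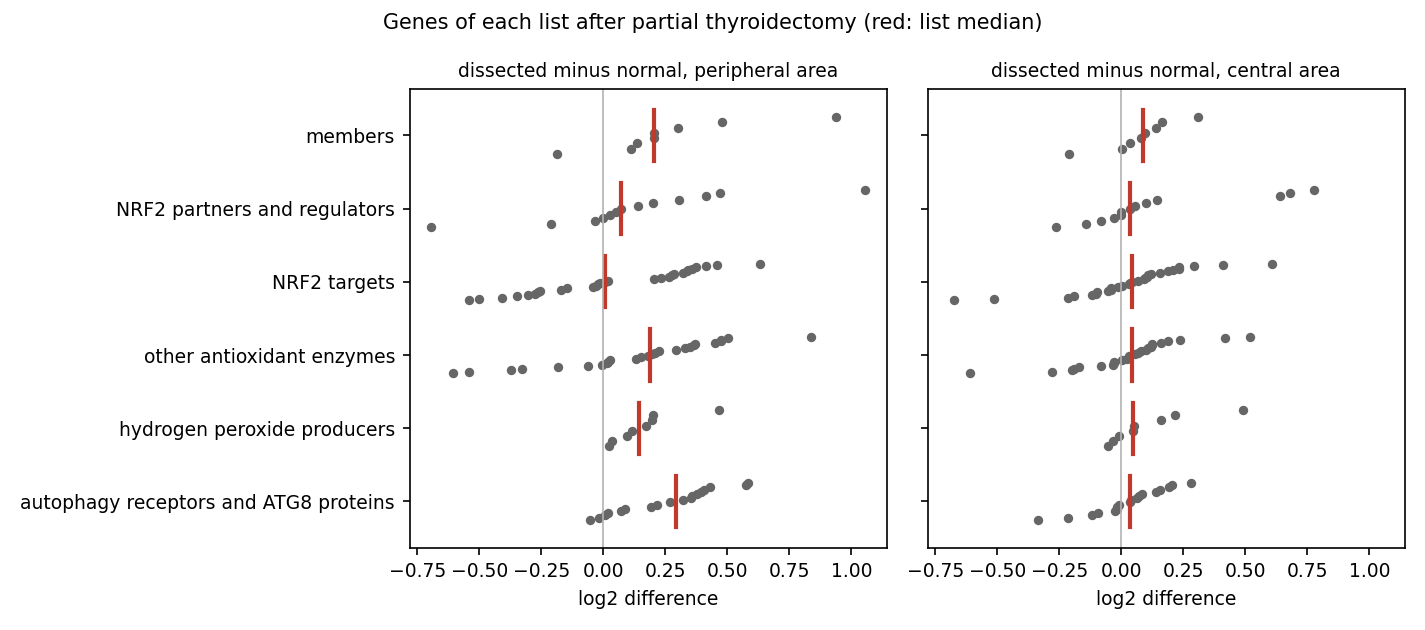
Dissected minus normal difference (horizontal axis, log2) of each measured gene in the member list and the 5 other lists, in the peripheral area (left) and the central area (right). Each point is 1 gene, red bars mark list medians, and the medians of the peripheral area run from 0.01 for the NRF2 targets to 0.29 for the autophagy list.

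Markers of other cells were read beside these values. Of 8 macrophage markers 7 were measured, with summed Cy5 intensities of 8060 to 27400 in the dissected and 6620 to 16000 in the normal peripheral area, and their median peripheral difference was 0.05, with 0 called. Fibroblast, endothelial and adipocyte markers had median peripheral differences of -0.01, -0.18 and -0.18, with 0 called. Red blood cell and skeletal muscle markers had medians of -0.19 and 0.19, and the parathyroid, lymphocyte and neutrophil lists, with 1 measured marker each, had -0.98, -0.29 and 0.94, again with 0 called. In the central area no marker was called after surgery, but summed Cy5 intensities spread widely over arrays. C cell sums ran from 37900 to 496000 in dissected and from 346000 to 514000 in normal central tissue, parathyroid sums from 72.7 to 168 and from 70.5 to 31000, and skeletal muscle sums from 428 to 19200 and from 473 to 3020. Their part in the central values was not tested. C cell markers had a median peripheral difference of -1.05, with summed Cy5 of 71000 to 143000 in the dissected and 157000 to 200000 in the normal peripheral area, and their part in the member values was not tested.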

How the data were processed

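RNA of laser-captured mouse thyroid areas was amplified and hybridised against a common RNA on 18 two-colour Agilent arrays, per the labels' protocols. The authors deposited scanner output with spot intensity, background and flags in 2 channels, and log10 ratios (red over green), per the file headers. Feature Extraction was version 9.5.1.1 per the file headers and 8.5.1.1 per the submitters' processing notes. Their deposited value table holds a linear ratio per probe, which was used on a log2 scale as an alternative only.

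From the mean spot intensity, background was corrected by normexp (offset 50), ratios were loess-normalized within arrays in limma 3.58.1 (R 4.3.3) with control spots at weight 0, non-uniform spots were dropped (at most 108 on an array) and spots of a probe averaged. Probes were kept if well above background in Cy5 on at least 3 arrays (19082 of 41174), and the brightest stood for its gene. Symbols were updated through RefSeq by accession for 22951 probes, by current symbol for 6659 and by older symbol for 3109; 8455 kept the file's name. One limma fit of 4 group means with eBayes used all 18 arrays, and p-values were adjusted by Benjamini-Hochberg over 14664 genes, called under 0.05. The number of arrays limits the precision.

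The members and gene lists were chosen with earlier results of these data known. All members were named, with every list gene called in any comparison and the 3 genes of each list with the smallest p across the 4 groups. Added alternatives, chosen after seeing the data, left out normal peripheral replicate 1 alone or with dissected peripheral replicate 1, and set the brightest genes beside Sqstm1. The fit was tested on simulated data with independent noise on each array. These held no weak array and no shared slide, so the test says nothing of how the fit handles those.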

Additional observations from a re-analysis of the deposited data

Results flagged for a closer look

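In the normal central area, Sqstm1 on replicate 3 had a log2 ratio of 0.31, apart from the nearest of the other 4 arrays at 0.13. In the same group, Nqo1 on replicate 2 had a log2 ratio of -0.49, with the nearest array at -0.19. Each stood apart by a gap test for a single value far from its group. Of 24 groups tested 2 were singled out, and chance alone singles out about 1 in 20 groups. The normal peripheral groups, with 3 arrays, were too small for this test, so normal peripheral replicate 1 could not be flagged.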

How the results depend on the processing

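Median centring in place of loess moved the median of all genes from near 0 to 0.23 (dissected minus normal, peripheral area), -0.15 (central area), -0.12 and 0.28 (central minus peripheral area in dissected and normal thyroids) and -0.40 (difference between areas in the surgery difference). Against those shifts, Sqstm1 turned to -0.14 in the central area and Gclc to 0.14 between areas of normal thyroids; the cause was not tested. The mean of kept probes turned Srxn1 to -0.01 between areas of dissected thyroids. A change of sign was listed only where the difference as reported exceeded its own SE. Member medians under median centring were 0.77 and -0.15 after surgery in the peripheral and central areas. Without the 4 weakest arrays 1 member, Srxn1, was called between areas of dissected thyroids (0 as reported). The call of Sqstm1 across the 4 groups was lost, 0 members called, with Agilent processed signals, median centring, Cy5 alone, the deposited value table, no filter, every kept probe, slide as a block, scan day as a block, the replicate block and array weights; leaving out 1 array gave 0 to 1, with the call lost in 15 of 18 cases. In all, 25 of 33 settings lost it.

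Counts over all genes moved more than 1.5 times. Between areas of dissected thyroids, 86 genes became 47 (median centring), 45 (Cy5 alone), 21 (only the groups compared) and 193 (without the 4 weakest arrays), and 48 to 173 with 1 array left out. Between areas of normal thyroids, 41 became 78 (processed signals), 154 (median centring), 94 (value table), 8 (no filter), 18 (slide block), 95 (without the 4 weakest arrays), 64 (array weights), and 1 to 76 with 1 array left out. After surgery, 0 became 1 (processed signals), 5 (median centring) and 1 (value table) in the peripheral area, 2 (array weights) in the central area, and 0 to 1 in each with 1 array left out; the difference between areas became 4 under median centring.

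The replicate block gave 4 genes between areas of normal thyroids and 0 members across the 4 groups. Same-numbered arrays deviated together with r of -0.07 to 0.29 (median 0.07), 9 of 24 pairs over 0.1, against 7 of 96 pairs of other numbers, and 13 of 18 arrays correlated best with their own number, a hint from the data that same-numbered arrays share something. Each number stands for 1 slide, except that normal peripheral replicate 3 lay on the slide of the replicate 4 arrays. Since not every pair exceeded 0.1 and the labels name no shared batch, the main fit did not treat the arrays as paired. This does not show that they are independent. The slide is known from the scanner headers only. Slide and replicate number were each run as a block, and what same-numbered arrays share was not tested.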
